A study of Homo sapiens with 6 samples.

Results

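The genes described here are 10 receptors and partners of hypoxic mitophagy, the removal of mitochondria by autophagy when oxygen is low. They were chosen by symbol, and they and the gene lists below were picked with earlier results of these data known. All 10 of Bnip3, Bnip3l, Fundc1, Pink1, Sqstm1, Optn, Map1lc3a, Map1lc3b, Gabarapl1 and Ulk1 were found among the 22989 genes of the count table. All 10 also passed the filter on low counts, which kept 13497 genes.

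In mitophagy, receptors in the outer mitochondrial membrane such as BNIP3, BNIP3L and FUNDC1 bind proteins of the ATG8 family (LC3 and GABARAP) on the growing autophagosome and so tie the organelle to it. In a separate route, the kinase PINK1 accumulates on depolarized mitochondria and marks them with phosphorylated ubiquitin, which adaptors such as SQSTM1 and OPTN bind. The kinase ULK1 starts autophagosome formation in either route, and BNIP3 and BNIP3L are well-known transcriptional targets of hypoxia-inducible factors.

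RNA was sequenced in 3 libraries of LINC00115 KD cells, which carry a short hairpin RNA (shRNA) against the long non-coding RNA LINC00115, and in 3 libraries of WT cells. All 6 are described as paclitaxel (PTX)-resistant MDA-MB-231 BCSC, that is, cells of a human triple-negative breast tumour line sorted for high aldehyde dehydrogenase activity. The comparison addresses how LINC00115 acts on the properties of these cells. The labels call the control WT, whereas the study's text describes a control shRNA, with puromycin selection of infected lines. A legend of the study names a single hairpin for the RNA-seq comparison, and the labels number the KD libraries as replicates, but the labels also number them with the names that the study gives to its separate hairpins. The labels and the methods also name different extraction and library kits. No label says that libraries came from separate cultures, and p-values measure the spread between these libraries.

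Library totals lay between 36979221 and 38799331 counts. The symbols in the table are written as mouse genes are, with 4648 Gm names and 1135 Rik names, although the samples are labelled human. Names that no human gene has also carried counts, such as Bnip3l-ps (means of 17.0 and 14.6 normalized CPM in WT and KD). Reads were therefore assigned to mouse gene models, and the species of the cells was not tested. Symbols are printed as the table gives them, and no genome positions are given for counted genes. LINC00115 is listed under no name, so the direction of each difference rests on the group labels. Of the genes that mark the labelled cells, Vim (3418 and 3736 normalized CPM in WT and KD) and Cd44 (911 and 879) were abundant, whereas Epcam, Krt19 and Aldh1a3 stayed at or under 0.124 normalized CPM in both group means. Normalized CPM are counts brought to a common library total after TMM scaling. Summed over 15 epithelial and breast cancer line genes, mostly Vim, the level was 4930 to 4989 in WT and 5557 to 5696 in KD libraries, with 8 genes higher and 1 lower in every KD library. Of the 10 of these genes tested, 8 rose and 1 fell at an adjusted p under 0.05 (edgeR), among them the keratin genes Krt8 and Krt18 with log2 fold changes of 0.67 and 0.87. These marker genes were picked with their values in view.

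Most of the mitophagy genes were lower in the KD libraries, and their best-known adaptor was higher. At an adjusted p-value under 0.05 in edgeR's quasi-likelihood test, 7 of the 10 members fell (Bnip3, Bnip3l, Fundc1, Pink1, Map1lc3b, Gabarapl1 and Ulk1) and 2 rose (Sqstm1 and Map1lc3a). Over all genes tested, 36.7% were lower and 36.7% were higher by this rule. The same 7 genes were lower in all KD libraries than in all WT libraries and the same 2 were higher, against 37.8% of all genes for each direction. For Map1lc3a this was only just so (20.293 against 20.279 normalized CPM). Its counts before scaling overlapped, with 745 in KD replicate 2 and 764 in WT replicate 1. With a fold change over 2 as a further threshold, only Bnip3 was called lower and 0 members were called higher, where 9.98% and 10.2% of all genes were. The median log2 fold change of the members was −0.67, and that of all genes tested was −0.0061.

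**Figure D1:**
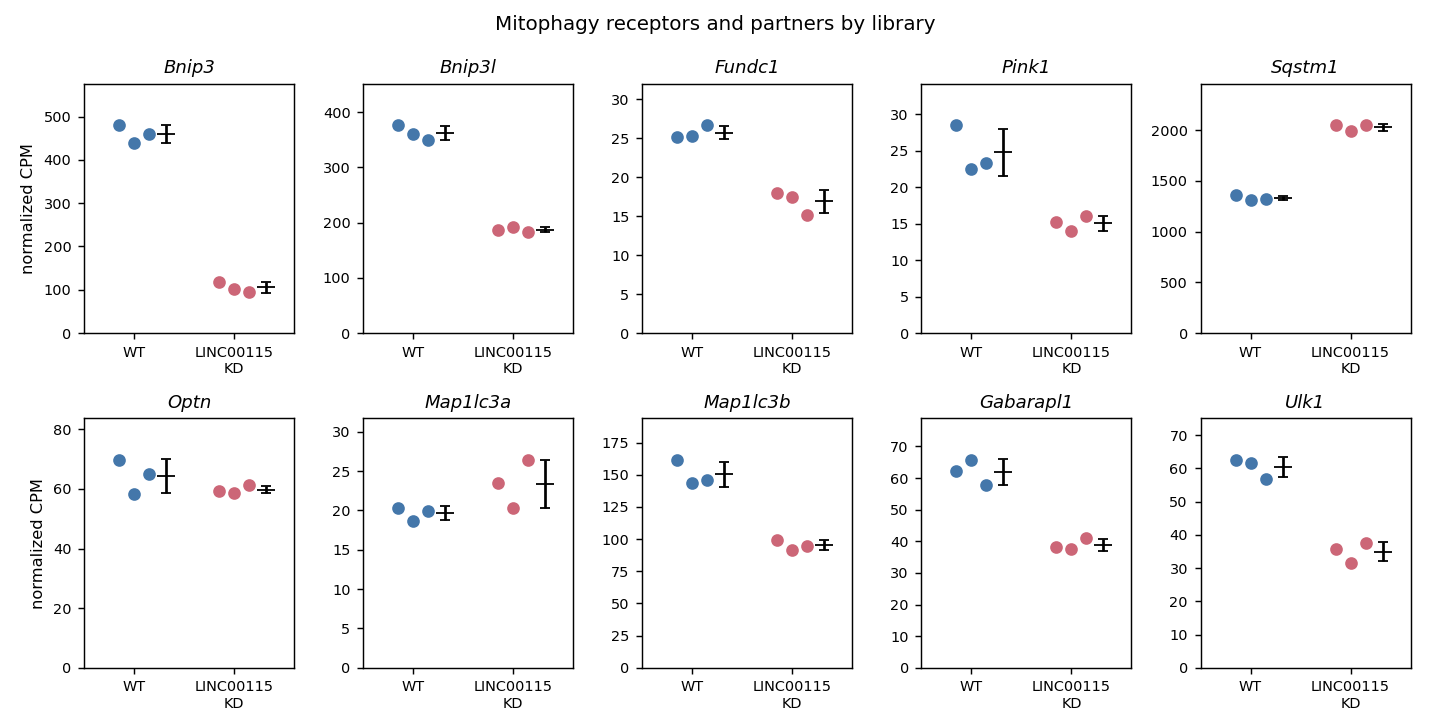
Normalized CPM (y axis, linear, from 0) of each of the 10 genes in the 3 WT libraries (blue) and the 3 LINC00115 KD libraries (red), with the mean and SD of each group in black beside its points. The points of the groups are apart for every gene except Optn, and for Map1lc3a the lowest KD library (20.3) lies just above the highest WT library (20.3).

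Among the receptors, Bnip3 changed most. BNIP3 is a mitochondrial BH3-only protein of the BCL2 family that recruits LC3 directly. It had 480.2, 440.1 and 459 normalized CPM in the WT libraries and 119, 102 and 95.9 in the KD libraries. Every KD library therefore lay far below every WT library, with KD replicate 1 the highest of the KD libraries. The mean fell from 459.7 ± 20.1 to 105 ± 11.98 normalized CPM (SD over n = 3 libraries), which is a log2 fold change of −2.12 (SE 0.049, edgeR adjusted p = 1.13e-28), or 4.36-fold lower. Of the 13497 genes tested, 2.40% had a lower log2 fold change. Among the 77 mitophagy and autophagy genes tested, members included, Bnip3 was the lowest.

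The promoter of human BNIP3 is shown because Bnip3 carried the largest change among the members. The 250 bases before the RefSeq transcription start lie on the minus strand at chr10:131981924-131982173 (GRCh38.p14), upstream of the gene's first exon. This is the sequence of the human gene, in keeping with the organism on the labels, and not of the species whose naming style the table uses. It may therefore not be the promoter of the gene that was counted. Capitals mark the letters ACGTG, a form of the core of the element that hypoxia-inducible factors bind, searched on both strands. The run CACGTG reads the same on both strands, so it holds 2 overlapping matches, which begin 134 and 133 bases before the start.
BNIP3: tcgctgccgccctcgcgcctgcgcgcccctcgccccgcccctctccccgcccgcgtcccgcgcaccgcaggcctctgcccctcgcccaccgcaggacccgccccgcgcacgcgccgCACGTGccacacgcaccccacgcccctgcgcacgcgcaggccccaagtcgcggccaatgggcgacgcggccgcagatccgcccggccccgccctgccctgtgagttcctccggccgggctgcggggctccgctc

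RefSeq promoters were found for 7 of the 10 members, in 10 entries because OPTN and SQSTM1 have several starts (BNIP3L, PINK1 and MAP1LC3A were not matched). Of these 10 entries, BNIP3's alone held ACGTG, and the letters occur in 18.5% of all 35116 promoters of the same length. The other form of the core, GCGTG, was not searched, so this does not show that the other entries lack a core. For the antioxidant response element, TGACNNNGC on both strands, 1 member entry (MAP1LC3B) had a match, against 10.9% of all promoters. These matches describe letters in a window of 250 bases and are not measurements of binding.

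Bnip3l encodes BNIP3L, also called NIX, the paralog of BNIP3 that clears mitochondria from maturing red blood cells. Its WT libraries had 376, 359.9 and 350.2 normalized CPM and its KD libraries 187, 193 and 183. The libraries of a group were close together and the groups were far apart. The mean fell from 362 ± 13.2 to 187 ± 5.14 (SD over n = 3 libraries), which is a log2 fold change of −0.95 (SE 0.036, edgeR adjusted p = 2.37e-22). This is a 1.93-fold decrease, just under the threshold of 2, and it stayed under it in all alternatives, the nearest being −0.99 with upper quartile scaling. Counts of Bnip3l could be shared with a processed copy listed as Bnip3l-ps, since how reads with several matches were counted is not given in the sources used here.

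Fundc1, which encodes a hypoxia-regulated receptor that binds LC3 when it is dephosphorylated, had between 577 and 1007 counts per library, far fewer than Bnip3 or Bnip3l. It had 25.1, 25.3 and 26.7 normalized CPM in the WT libraries and 18.0, 17.5 and 15.2 in the KD libraries. No KD library reached a WT library. The log2 fold change was −0.61 (SE 0.082, edgeR adjusted p = 5.16e-08). Its mean normalized CPM fell by 34.3%, that of Bnip3l fell by 48.25% and that of Bnip3 fell by 77.1%.

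Genes for enzymes that act on the FUNDC1 protein are in the fixed lists. The kinase gene Src, whose product phosphorylates the LC3-binding part of FUNDC1, had the largest increase of its list without passing a fold change of 2 (119 ± 3.40 to 231 ± 4.59 normalized CPM, SD, n = 3 each, log2 fold change 0.95, edgeR adjusted p = 1.08e-21). The remaining genes of this paragraph were chosen after their values were seen. Pgam5, for a phosphatase that acts on FUNDC1, also rose (log2 fold change 0.69). Marchf5, for the ubiquitin ligase that marks FUNDC1 for degradation, rose too (0.67). Csnk2a1, for a catalytic subunit of casein kinase 2, had 0.089 and did not pass the test (edgeR adjusted p = 0.0633), whereas Csnk2a2, for the other catalytic subunit, rose by 0.63 on the log2 scale, from 71.2 ± 1.64 to 109.97 ± 0.853 normalized CPM (edgeR adjusted p = 9.31e-15).

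Pink1, the kinase gene of the ubiquitin route, had 28.5, 22.5 and 23.3 normalized CPM in the WT libraries and 15.2, 13.9 and 16.0 in the KD libraries. WT replicate 1 was the highest, and all WT libraries lay above all KD libraries. Its log2 fold change was −0.72 (SE 0.091, edgeR adjusted p = 1.29e-08). Leaving out WT replicate 1 gave the smallest decrease, −0.61.

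Of the adaptors, Sqstm1 rose and Optn did not pass the test. Sqstm1 encodes p62, which binds ubiquitin and LC3 and is itself degraded by autophagy. It was the most heavily counted member, with 49593 to 51143 counts in WT and 72977 to 79174 in KD libraries. Its levels were 1358, 1314 and 1324 normalized CPM in WT and 2047, 1988 and 2048 in KD. The KD libraries all lay above the WT libraries, and within a group the libraries differed by a coefficient of variation of at most 1.72%. The mean rose from 1332 ± 22.9 to 2028 ± 34.5 (SD over n = 3 libraries), which is a log2 fold change of 0.61 (SE 0.028, edgeR adjusted p = 7.86e-20), or 1.52-fold.

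Optn encodes optineurin, an adaptor that binds ubiquitin chains on mitochondria after PINK1 has acted. It had 69.7, 58.4 and 65.1 normalized CPM in the WT libraries and 59.4, 58.7 and 61.2 in the KD libraries. The groups overlapped, since WT replicate 2 lay below every KD library. The log2 fold change was −0.11, with a 95% interval from −0.22 to 0.0021 (edgeR adjusted p = 0.0829). It passed an adjusted p under 0.05 without WT replicate 2 (log2 fold change −0.17, edgeR adjusted p = 0.00864), with upper quartile scaling (−0.15, edgeR adjusted p = 0.0192) and with library size alone (−0.13, edgeR adjusted p = 0.0432).

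The ATG8 genes did not move as a block. Map1lc3b, for the LC3 protein most often used to mark autophagosomes, had 162, 144 and 146 normalized CPM in WT and 99.2, 91.7 and 94.9 in KD libraries. Gabarapl1, for a member of the GABARAP branch, had 62.2, 65.7 and 57.7 in WT and 38.1, 37.5 and 40.9 in KD libraries. In either gene all KD libraries lay below all WT libraries. The log2 fold changes were alike, −0.66 for Map1lc3b (SE 0.045, edgeR adjusted p = 4.85e-15) and −0.67 for Gabarapl1 (SE 0.059, edgeR adjusted p = 2.43e-12).

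Map1lc3a, for a second LC3 protein, went the other way. It had 20.3, 18.7 and 19.98 normalized CPM in the WT libraries and 23.5, 20.3 and 26.4 in the KD libraries. The KD libraries were spread widely, with KD replicate 2 at the level of the highest WT library and KD replicate 3 well above it. The log2 fold change was 0.25 (SE 0.087, edgeR adjusted p = 0.00981). The increase rested on KD replicate 3, since without it the log2 fold change was 0.16 and the adjusted p = 0.123 (edgeR's quasi-likelihood test).

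The other ATG8 genes of the core autophagy list, named here after their values were seen, also differed from each other. Gabarap fell from 217 ± 7.01 to 136 ± 0.249 normalized CPM (SD over n = 3 libraries), which is a log2 fold change of −0.68 (edgeR adjusted p = 1.15e-17). Gabarapl2 had 33.3 ± 2.69 in WT and 33.2 ± 0.598 in KD libraries and did not pass the test (log2 fold change −0.0052, edgeR adjusted p = 0.948). Summed over these 5 ATG8 genes, the WT libraries had 474 to 498.5 normalized CPM and the KD libraries 317.5 to 332, so the groups did not overlap. Map1lc3a made up 3.94% to 4.20% of these counts in WT and 6.39% to 7.96% in KD libraries.

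Ulk1, for the kinase that starts autophagosome formation, had 62.5, 61.5 and 56.9 normalized CPM in the WT libraries and 35.8, 31.7 and 37.4 in the KD libraries. All KD libraries were below all WT libraries. The log2 fold change was −0.79 (SE 0.062, edgeR adjusted p = 1.80e-13), after Bnip3 and Bnip3l the largest decrease among the members. The genes for the partners of ULK1 in its complex, chosen after their values were seen, also fell, with log2 fold changes of −0.72 for Rb1cc1 (FIP200), −0.50 for Atg13 and −0.29 for Atg101 (edgeR adjusted p = 6.53e-15, 2.30e-10 and 0.000581). The paralog Ulk2 had a log2 fold change of −0.076 and did not pass (edgeR adjusted p = 0.244).

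**Figure D2:**
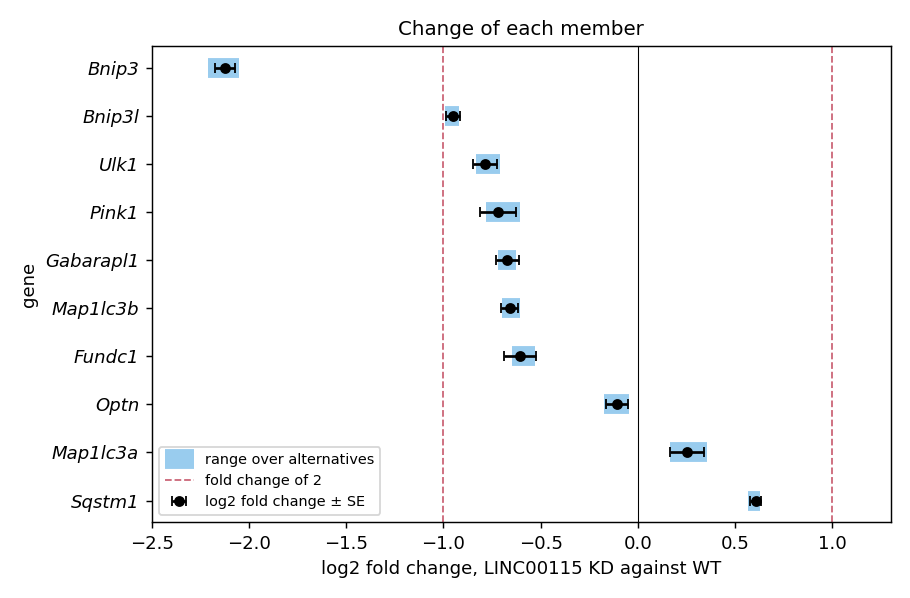
Log2 fold change of LINC00115 KD against WT (x axis) for each of the 10 genes (y axis). Points are edgeR's estimates with bars of ± 1 standard error (SE), blue bands span the lowest and highest value over the alternative settings, and dashed lines mark a fold change of 2. Bnip3 (−2.12) stands beyond the line, Bnip3l (−0.95) just inside it, Sqstm1 (0.61) and Map1lc3a (0.25) lie to the right of 0, and the band of no gene crosses 0.

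Summed over the 10 members, the libraries had 2510 to 2644 normalized CPM in WT and 2553 to 2642 in KD, and the groups overlapped. Within this sum, Sqstm1 took 51.35% to 52.4% of the counts in WT and 77.5% to 78.2% in KD libraries. Bnip3 and Bnip3l together had 799.9 to 857 normalized CPM in WT and 279 to 306 in KD libraries. Counts were not divided by gene length, so these shares compare libraries and not genes.

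A ratio of a pair of genes within a library does not depend on how libraries are scaled, and was used to compare members of like function. The ratio of Bnip3 to Bnip3l counts was 1.28, 1.22 and 1.31 in the WT libraries and 0.637, 0.527 and 0.525 in the KD libraries. Bnip3 thus had more counts than its paralog in every WT library and fewer in every KD library, a difference of −1.18 in the mean log2 ratio. The ratio of Map1lc3a to Map1lc3b was 0.126, 0.13 and 0.137 in WT and 0.237, 0.221 and 0.278 in KD libraries (difference 0.90 on the log2 scale). The ratio of Sqstm1 to Optn was 19.5, 22.5 and 20.3 in WT and 34.5, 33.8 and 33.5 in KD libraries (difference 0.71 on the log2 scale). For each of these 3 ratios the groups did not overlap, and the two-sided exact permutation test over libraries gave p = 0.1, the smallest that 3 libraries against 3 allow, and 0.1 after Benjamini-Hochberg adjustment over the 3 ratios.

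**Figure D3:**
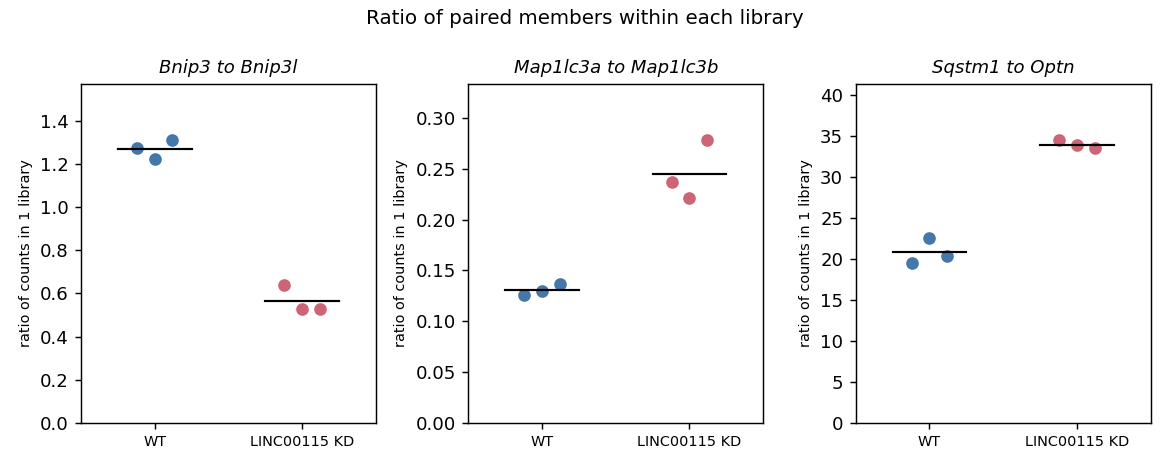
Ratio of counts of a pair of genes in the same library (y axis, linear, from 0) for the WT (blue) and LINC00115 KD (red) libraries, with the group mean as a black line. The ratio of Bnip3 to Bnip3l is lower in all 3 KD libraries, and the ratios of Map1lc3a to Map1lc3b and of Sqstm1 to Optn are higher in all 3.

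The other genes of the pathway divided about evenly, as all genes tested did. Of 67 other mitophagy and core autophagy genes tested, 26 (38.8%) fell and 25 (37.3%) rose at an adjusted p under 0.05. Their median log2 fold change was −0.0273. The lists below share some genes, which count once here, so those lists add up to more. Over all genes tested, 36.7% fell and 36.7% rose, and the list counts below stand against these shares. With a fold change over 2, 3 of the 67 (4.48%) were called lower and 2 (2.99%) higher (edgeR's quasi-likelihood test). Over all genes the shares called were 9.98% and 10.2%. Among 10 other receptors and adaptors tested, 6 (60%) fell and 3 (30%) rose. The single call was Nbr1, an adaptor related to p62, which fell from 203 ± 11.8 to 95.95 ± 2.22 normalized CPM (SD over n = 3 libraries), which is a log2 fold change of −1.08 (edgeR adjusted p = 6.21e-22). Tollip, for a ubiquitin-binding adaptor, rose most in this list (log2 fold change 0.48). Sqstm1 rose and its relative Nbr1 fell.

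Genes for ubiquitin enzymes and mitochondrial regulators leaned to the other side. Of 23 tested, 5 (21.7%) were lower and 14 (60.9%) higher at an adjusted p under 0.05, with a median log2 fold change of 0.178. Usp35, for a deubiquitinase reported on mitochondria, was the single call and fell from 17.5 ± 1.88 to 4.37 ± 0.536 normalized CPM (SD over n = 3 libraries), which is a log2 fold change of −2.001 (edgeR adjusted p = 1.88e-16). Src, described above with Fundc1, rose most.

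Among 36 core autophagy genes tested, 16 (44.4%) fell and 9 (25%) rose, with a median log2 fold change of −0.061. Atg2a, for a lipid transfer protein of the growing membrane, was called lower (54.6 ± 2.86 to 25.1 ± 1.29 normalized CPM, SD, n = 3 each, log2 fold change −1.12, edgeR adjusted p = 2.61e-17). Atg7, for the enzyme that activates ATG8 proteins for conjugation, was called higher (14.7 ± 0.920 to 30.6 ± 1.64, log2 fold change 1.05, edgeR adjusted p = 6.41e-14). So was Atg9b, for a lipid scramblase of the autophagosome membrane, from a low level (1.51 ± 0.468 to 12.7 ± 1.18, log2 fold change 3.07, edgeR adjusted p = 2.54e-17).

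**Figure D4:**
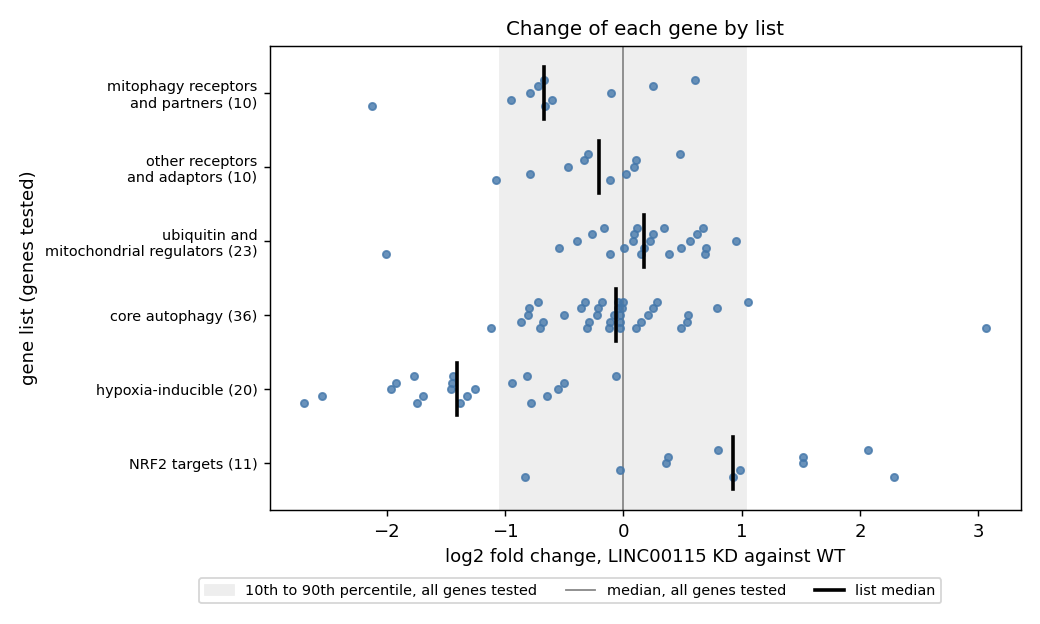
Log2 fold change of LINC00115 KD against WT (x axis) of each gene tested, by list (y axis, number of genes tested in brackets), with the list median as a black bar. The grey band holds the 10th to 90th percentile of all genes tested (−1.04 to 1.04) and the grey line their median. The medians are −0.67 for the 10 members, −0.205, 0.178 and −0.061 for the other mitophagy and autophagy lists, −1.41 for hypoxia-inducible genes and 0.926 for NRF2 targets.

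Beside the members stand the hypoxia-inducible and NRF2 lists, whose known regulators are tied here to only some members (Bnip3 and Bnip3l, and Sqstm1). Whether these regulators had a part in the values of the members was not tested. Both lists were chosen with earlier results of these data known, so their counts are descriptions and not independent support. Of 20 hypoxia-inducible genes, 19 fell at an adjusted p under 0.05, 13 were called lower and 0 rose (edgeR's quasi-likelihood test), with a median log2 fold change of −1.41. The gene that did not pass was Pfkfb3 (log2 fold change −0.063, edgeR adjusted p = 0.179). Of these 20 genes, 2 had a lower log2 fold change than Bnip3 and 13 had a lower one than Bnip3l. For NRF2 targets, a class to which Sqstm1 is known to belong, 9 of 11 rose and 1 fell (G6pdx), with a median of 0.926. Nqo1 did not pass (log2 fold change −0.028, edgeR adjusted p = 0.652). The 4 called higher were Slc7a11, Osgin1, Srxn1 and Gclm, with log2 fold changes of 2.29, 2.07, 1.52 and 1.52.

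Of 17 genes for transcription factors that act on autophagy genes, 9 fell and 5 rose at an adjusted p under 0.05 (edgeR's quasi-likelihood test). Those named here, like the genes named from the hypoxia-inducible and NRF2 lists, were chosen after their values were seen. Foxo3, for a factor known to act on Bnip3 and Map1lc3b, was the single gene called lower, from 125 ± 4.90 to 52.8 ± 2.81 normalized CPM (SD over n = 3 libraries), which is a log2 fold change of −1.24 (edgeR adjusted p = 6.44e-22). Hif1a, for the alpha subunit of hypoxia-inducible factor 1, rose from 254 ± 5.94 to 334 ± 1.68 (log2 fold change 0.40, edgeR adjusted p = 1.11e-12), and Nfe2l2, for NRF2, fell (−0.41, edgeR adjusted p = 2.39e-12). Epas1, for another alpha subunit, was called higher, with 0, 0 and 3 counts in WT and 85, 57 and 74 in KD libraries. Atf4, for a factor of the integrated stress response, rose from 347 ± 14.98 to 656 ± 4.23 normalized CPM (log2 fold change 0.92, edgeR adjusted p = 8.43e-23). These are levels of messenger RNA, and the activity of the factors was not measured.

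By their pattern over the 6 libraries (log2 normalized CPM with a pseudocount of 0.5, centred on each gene's mean), the 5 genes nearest to Bnip3 by Euclidean distance were Plod2, Tnc, Adamts9, Gys1 and Higd1a, at distances of 0.15, 0.174, 0.202, 0.226 and 0.237. Their log2 fold changes lay between −2.32 (Tnc) and −1.959 (Higd1a). Plod2 encodes a collagen lysyl hydroxylase and had 474 ± 23.6 normalized CPM in WT and 114 ± 7.10 in KD libraries (SD, n = 3 each). Gys1 encodes the glycogen synthase of muscle and most other tissues. Higd1a encodes a hypoxia-induced mitochondrial protein and is also on the hypoxia-inducible list. Since the groups differ strongly, this distance mostly compares the size of the group difference.

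Marker genes of other tissues moved with the groups, and those named were picked with their values in view. The summed level of 12 lung genes was 1.70 to 1.88 normalized CPM in WT and 76.9 to 86.0 in KD libraries, with 12 of 12 higher in every KD library and 9 of them, among them Scgb1a1 and Sftpc, at 0 in all WT libraries. For 12 kidney genes the sums were 16.8 to 19.6 and 44.5 to 48.2, with 8 higher and 1 lower, and Kap and Umod at 0 in all WT libraries. For 11 leukocyte genes the sums were 34.98 to 35.8 and 99.7 to 111, mostly S100a8 (33.0 and 95.2 in the group means). In every KD library 4 were higher (S100a8, Lyz2, Cd74 and S100a9) and 1 lower (Csf1r, with at most 3 counts). Of the 11 genes, Cd3e was at 0 in all libraries and Ptprc had at most 0.255 normalized CPM in a group mean. For 9 red blood cell genes, a cell type known for high BNIP3L, the sums were 0.0531 to 0.185 and 1.69 to 2.51. In bulk RNA, a change in the number of cells of a type and a change in RNA per cell cannot be told apart. The part of these markers in the values of the mitophagy genes was not tested.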

How the data were processed

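Adapters were trimmed and reads mapped with HISAT2 by the authors, who deposited whole-number counts per gene without normalization. The methods name hg19, the submitters' processing notes name hg38, featureCounts and DESeq2, and the table's symbols are in mouse style. The annotation and the strand setting are not given in the sources used here.

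Counts were filtered by filterByExpr (minimum count 10, minimum total 15), normalized by TMM and tested with edgeR 4.0.16 in R 4.3.3 (quasi-likelihood test, group only, Benjamini-Hochberg adjustment over 13497 genes). A call needed an adjusted p under 0.05 together with a change of more than 2-fold. Standard errors are the log2 fold change over the square root of F, and 95% intervals are 1.96 standard errors wide each way. On simulated counts (13298 genes tested, 200 changed), edgeR recovered 199 with 2 false calls. The changed genes were all well counted, changed by more than 2-fold and had dispersions taken from these data. The simulation therefore does not bear on smaller changes, such as those of most members. Pairs of libraries of the same group had a chi-square of 3.94 to 7.96 per degree of freedom, above sampling noise, and all were kept.

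Members and lists were chosen with earlier results of these data known. Named were all members, called genes of the mitophagy and autophagy lists (or the largest change each way) and the 5 genes nearest to Bnip3. Further genes are marked in the text as picked with their values in view. Alternatives were other scalings and filters, each library left out, a replicate block, DESeq2 1.42.0, no fold threshold and, for ratios, an added count of 0.5. Promoters are from RefSeq (GRCh38.p14). The columns of values not used number 0. The result of 1 gene of the mitophagy lists is not reported here.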

Additional observations from a re-analysis of the deposited data

How the results depend on the processing

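Without the threshold on the fold change, 7 members were lower and 2 higher, 26 other mitophagy and core autophagy genes lower and 25 higher, and 4960 of all genes lower and 4952 higher. With at least 10 counts in every sample, 903 of all genes were called higher, since that filter removes genes with few counts in a group. In the other alternatives the counts stayed within 1.5 times those reported, with 1 member lower and 0 higher in each of them. No member changed direction in any of 13 alternatives. Bnip3 ranged from −2.21 to −2.05 and Sqstm1 from 0.57 to 0.63 on the log2 scale. Map1lc3a passed an adjusted p under 0.05 in 12 of 13, Optn in 3 of 13, and the remaining members in all.

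The replicate numbers are shared between the groups, but samples with the same number did not deviate together (correlations of 0.0135, −0.0194 and −0.0202 over 13497 genes). With the replicate number as a block, 1 member was lower and 0 higher and Bnip3 had a log2 fold change of −2.13. The mean log2 ratios did not move with the block (−1.18 for Bnip3 to Bnip3l), and its exact test allows no p under 0.25. Below 3 counts, which a count of 0 allows, these libraries cannot show a difference (counting error only).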

Other observations

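Relatives of the members that share a name stem were looked up after the members' values were seen. Ulk3, a kinase gene related to Ulk1, fell from 31.8 ± 4.58 to 14.4 ± 0.674 normalized CPM (SD over n = 3 libraries), which is a log2 fold change of −1.15 (edgeR adjusted p = 9.77e-14), more than Ulk1 did. Ulk4 had 3.72 ± 0.487 and 3.18 ± 0.579 and did not pass the test (edgeR adjusted p = 0.339). Fundc2, the paralog of Fundc1, fell by 0.92 on the log2 scale, from 65.2 ± 2.35 to 34.5 ± 1.62 normalized CPM. Whether these paralogs differ in their change was not tested.

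Bnip3l-ps, listed as a processed copy of Bnip3l, had 19.7, 15.4 and 15.8 normalized CPM in the WT libraries and 14.1, 14.95 and 14.7 in the KD libraries. Its log2 fold change was −0.22 (edgeR adjusted p = 0.0446), against −0.95 for Bnip3l. The spread between libraries differed among the members, with the highest coefficients of variation for Pink1 in WT (13.1%, where counting alone gives 3.27%) and Map1lc3a in KD libraries (13.1%, where counting alone gives 3.36%).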
